A study of Rattus norvegicus with 30 samples.

Results

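Serine is made from an intermediate of glycolysis in a short chain of enzymes, and the mitochondrial enzymes that follow it pass its carbon to folate. Cystine, large neutral amino acids, cationic amino acids and glutamine enter the cell through transporters that are often induced together with those enzymes. The 10 genes described here cover both: Phgdh, Psat1 and Psph of serine synthesis, Shmt2 and Mthfd2 of the mitochondrial folate pathway, and the transporter genes Slc3a2, Slc7a11, Slc7a5, Slc7a1 and Slc38a2. They were taken as every probe set of the rat array whose annotated gene symbol was one of these names, which gave 12 of the 31099 probe sets. Of these, 11 passed a filter on dim signals, and each of the 10 genes kept at least 1 of them among 11503 genes tested. Slc7a1 had 3 probe sets and each other gene had 1, and no probe set named one of the genes beside another gene.

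Primary hepatocytes, the main metabolic cells of the liver, came frozen from male Sprague Dawley rats and were held in culture under Matrigel. On day 3 they received the vehicle dimethyl sulfoxide (DMSO) at 1%, or chlorpromazine hydrochloride, a phenothiazine antipsychotic known for cholestatic liver injury, at 0.8 µM or at 20 µM. RNA was taken after 24 h or 48 h, and each of the 6 groups had 5 wells with an array each, which gave 30 arrays. The labels call each well a separate culture and mention no separate animals, and the p-values therefore measure the spread between wells. Titles of treated samples give no DMSO content, and 1 vehicle sample placed at 24 h by its time entry (replicate 2) has 2 h in its title.

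In liver, as in other tissues, the transcription factor Atf4 is known to activate serine synthesis genes and several of these transporters when amino acids run short or when the endoplasmic reticulum is stressed. Slc3a2 encodes the heavy chain that brings the light chains Slc7a11, which exchanges cystine for glutamate, and Slc7a5, which carries large neutral amino acids, to the plasma membrane. Slc7a1 is the main carrier of arginine and lysine in many cells, and Slc38a2 takes up glutamine and other small neutral amino acids with sodium. Serine gives glycine through the hydroxymethyltransferase Shmt2, and Mthfd2 oxidises the folate-bound carbon released in that step.

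Promoter sequences are shown for the genes whose start regions hold a core motif of the 2 factors most often linked to such transporters. RefSeq windows of build GRCr8, 250 bases before to 50 bases after each annotated start, were found for 10 of 10 genes, with 2 starts for Slc3a2. Both strands were searched for TGATGNAA, the core of the element bound by C/EBP and ATF proteins, and for TGACNNNGC, the core of the antioxidant response element bound by NRF2. TGATGNAA was present in 1 of the 11 windows, that of Slc7a1, against 3.98% of 33469 rat promoter windows of the same length. The Slc7a1 window is chr12:11664238-11664537 on the plus strand, with the match in capitals, its leading base at -30 from the start.
Slc7a1: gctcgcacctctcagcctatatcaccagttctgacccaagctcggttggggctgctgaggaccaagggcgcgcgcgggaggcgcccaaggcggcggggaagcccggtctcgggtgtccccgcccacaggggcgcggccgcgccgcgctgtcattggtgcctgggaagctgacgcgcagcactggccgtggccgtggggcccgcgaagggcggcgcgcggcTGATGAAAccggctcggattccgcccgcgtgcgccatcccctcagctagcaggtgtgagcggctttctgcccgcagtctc
TGACNNNGC was present in 4 of the 11 windows, against 12.1% of all windows. These were Phgdh (chr2:188624740-188625039, minus strand), the second start of Slc3a2 (chr1:215039621-215039920, minus strand), Slc38a2 (chr7:129742570-129742869, minus strand) and Slc7a1, where the match GCGCTGTCA begins at -107 and does not overlap the other motif. The matches in the other 3 windows are given in capitals.
Phgdh: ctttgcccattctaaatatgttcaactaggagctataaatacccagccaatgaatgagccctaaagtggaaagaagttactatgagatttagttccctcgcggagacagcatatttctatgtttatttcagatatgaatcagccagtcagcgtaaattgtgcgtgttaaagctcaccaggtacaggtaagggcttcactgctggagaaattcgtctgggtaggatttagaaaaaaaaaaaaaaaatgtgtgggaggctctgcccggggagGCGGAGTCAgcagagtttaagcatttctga
Slc3a2, second start: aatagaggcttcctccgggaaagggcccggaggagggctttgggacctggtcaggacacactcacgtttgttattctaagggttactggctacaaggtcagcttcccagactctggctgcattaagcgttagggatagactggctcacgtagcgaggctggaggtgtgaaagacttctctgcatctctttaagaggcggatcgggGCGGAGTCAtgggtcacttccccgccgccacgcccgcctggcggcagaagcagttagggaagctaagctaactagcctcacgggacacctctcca
Slc38a2: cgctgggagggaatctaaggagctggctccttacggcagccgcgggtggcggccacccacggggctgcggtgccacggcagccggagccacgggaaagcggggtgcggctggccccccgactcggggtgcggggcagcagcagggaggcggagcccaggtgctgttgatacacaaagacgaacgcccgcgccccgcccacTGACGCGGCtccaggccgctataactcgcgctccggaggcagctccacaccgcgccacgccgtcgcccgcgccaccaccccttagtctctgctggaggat
A match describes letters in these windows and not binding, which was not measured, and other parts of the genes were not searched.

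Signals are given as log2 of the deposited MAS5 signal floored at 16, on which a difference of 1 is a change of 2-fold, and a gene is said to have risen or fallen where limma's adjusted p over all 21226 probe sets kept was under 0.05. Changes are log2 differences ± SE from 5 arrays per group. Median signals of the arrays lay between 380 and 449. Of 8 hepatocyte markers, 7 passed the filter, and their summed signal was 406659 to 572950 at 20 µM and 24 h, against 479314 to 611553 in vehicle. At 48 h it was 401118 to 510400 at 20 µM, against 433353 to 540243 in vehicle. Kupffer cell markers (8 of 10 kept) summed to 6809 to 7876 at 20 µM and 24 h, against 6477 to 8782 in vehicle, and to 4955 to 6034 at 48 h, against 4365 to 5628 in vehicle. Endothelial markers summed to 1585 to 2025 at 20 µM and 24 h, below the 2071 to 2477 of vehicle, and to 1194 to 1739 at 48 h, against 1113 to 2044 in vehicle, with 5 of 7 markers kept. The 2 cholangiocyte markers kept of 5 summed to 9292 to 10867 at 20 µM and 24 h, against 8809 to 10146 in vehicle, and to 11166 to 12370 at 48 h, against 10635 to 11989 in vehicle. Of these, Epcam changed by 0.08 (adjusted p = 0.394) at 24 h, and Krt19 fell by 1.28 to a dim signal (means of 6.88 at 20 µM and 8.16 in vehicle). Stellate cell and fibroblast markers (7 of 8 kept) summed to 3306 to 4154 at 20 µM and 24 h, against 4016 to 4574 in vehicle, and to 3988 to 4625 at 48 h, against 3896 to 4951 in vehicle. Apob fell at both times (-0.52 and -0.59), and at 48 h the Kupffer markers Cd68 and C1qa moved apart (1.44 and -0.33). Whether these shifts take part in the results below was not tested, and in cultures measured as a whole a change in cell number cannot be told apart from a change in RNA per cell.

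At 20 µM and 24 h, the enzymes of serine synthesis and most of the transporters were higher than in vehicle, by 1.22-fold to 1.54-fold. Of the 10 genes, 6 rose, 1 fell and 3 did not pass the test, where 22.2% of all genes tested were called, 12.3% higher and 9.93% lower. Phgdh, Psat1, Psph, Slc3a2, Slc7a11 and Slc7a1 rose, and Shmt2 fell. The median change of the 10 genes was 0.49, and that of all genes was 0.01. The arrays did not overlap between 20 µM and vehicle for 4 of the 10 genes, as for 16.8% of all genes. At 48 h, 4 genes rose (Psph, Slc3a2, Slc7a11 and Slc7a5), none was lower even at an unadjusted p under 0.05, and the median change was 0.26, against 0.04 over all genes. At that time 33.5% of all genes were called, 19.3% higher and 14.2% lower, and the arrays of 25.9% did not overlap.

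**Figure D1:**
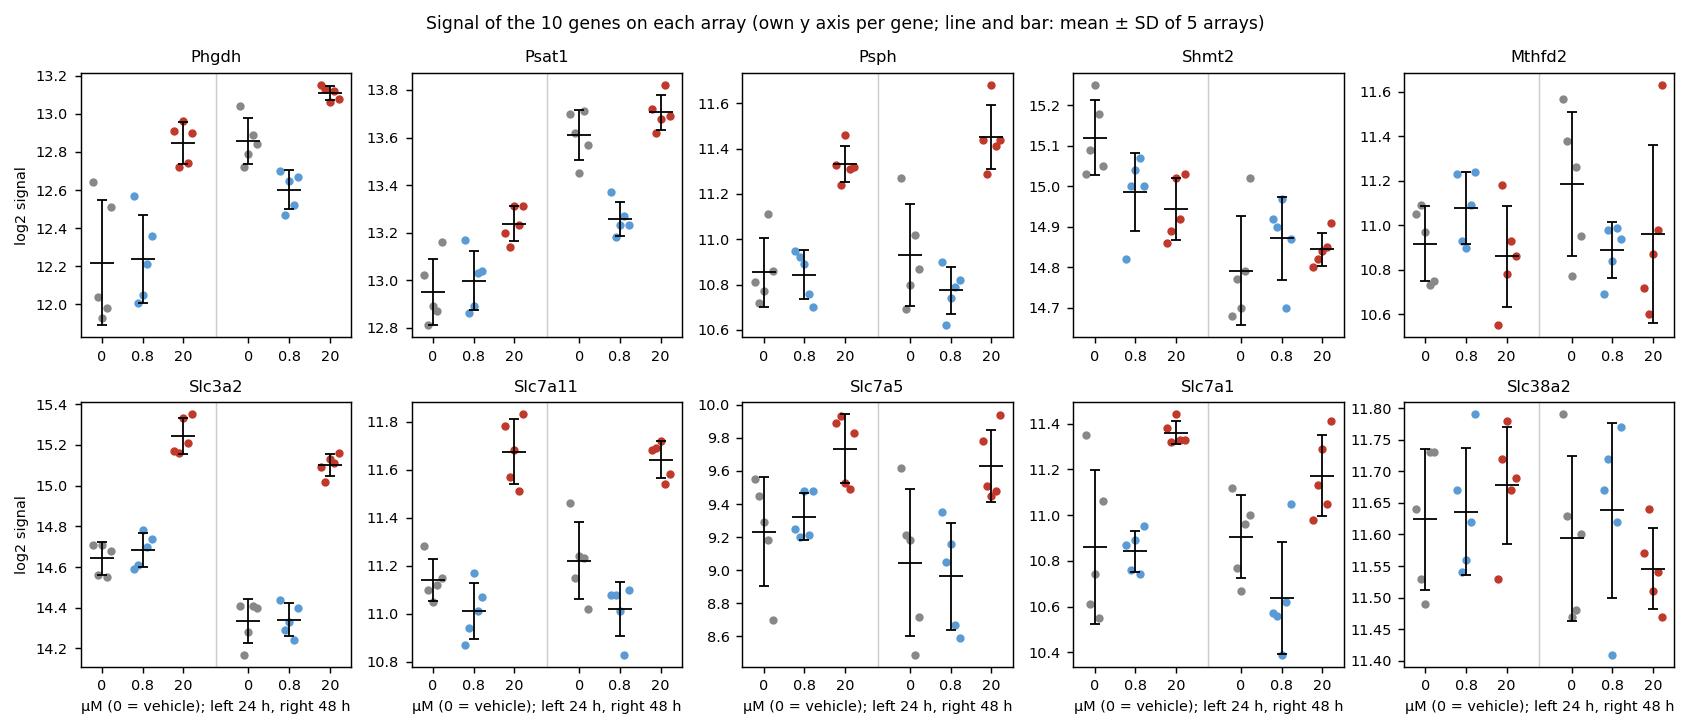
Log2 signal (y axis, own scale per gene) of the 10 genes on each of the 30 arrays, by chlorpromazine dose in µM (x axis, 0 is vehicle), 24 h on the left and 48 h on the right of each panel. Points are arrays and the line and bar are mean ± SD of 5 arrays. Slc3a2, Psph and Slc7a11 at 20 µM lie above every vehicle array at both times, while Slc38a2 and Mthfd2 overlap in all groups.

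Phgdh, the dehydrogenase that opens the serine pathway, had log2 signals of 12.91, 12.72, 12.96, 12.74 and 12.90 at 20 µM and 24 h, against 12.64, 12.04, 11.93, 11.98 and 12.51 in vehicle. The groups did not overlap, and 2 of the 5 vehicle arrays lay well above the other 3. The rise was 0.63 ± 0.11 (1.54-fold, adjusted p = 5.18e-05). At 48 h Phgdh read 13.15, 13.13, 13.06, 13.12 and 13.08 at 20 µM, against 13.04, 12.72, 12.79, 12.89 and 12.84 in vehicle. Again every array at 20 µM was above every vehicle array, but the difference of 0.25 ± 0.11 did not pass the test (adjusted p = 0.080). With the runs of 6 consecutive array numbers as a block, the adjusted p was 0.0204, and with only these 2 groups in the fit it was 0.00417. It was also under the threshold with quantile normalization (0.0498) and without vehicle replicate 1 (0.0484). In vehicle itself Phgdh was higher at 48 h than at 24 h, as described below, so the 48 h difference is taken from a higher level.

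Psat1, the aminotransferase of the next step, had 13.20, 13.14, 13.31, 13.23 and 13.31 at 20 µM and 24 h, against 13.02, 12.81, 12.89, 12.87 and 13.16 in vehicle. Vehicle replicate 5 lay within the range of the treated arrays and the other 4 vehicle arrays lay below it. The rise was the smallest of the 6, at 0.29 ± 0.06 (1.22-fold, adjusted p = 0.00131). At 48 h the 20 µM arrays read 13.72, 13.62, 13.68, 13.82 and 13.69, against 13.70, 13.62, 13.45, 13.71 and 13.57 in vehicle, and the groups overlapped. Their difference was 0.10 ± 0.06 with a 95% interval of -0.03 to 0.23 (adjusted p = 0.305).

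Psph, the phosphatase that releases serine, had 11.33, 11.24, 11.46, 11.31 and 11.32 at 20 µM and 24 h, against 10.81, 10.72, 10.77, 11.11 and 10.86 in vehicle. At 48 h it had 11.44, 11.29, 11.68, 11.41 and 11.44 at 20 µM, against 11.27, 10.69, 10.80, 11.02 and 10.87 in vehicle. All treated arrays lay above all vehicle arrays at both times, although vehicle replicate 1 at 48 h came within 0.02 of the lowest treated array. The rises were 0.48 ± 0.09 (adjusted p = 0.000194) at 24 h and 0.52 ± 0.09 (adjusted p = 2.97e-05) at 48 h. Psph was the one gene of serine synthesis called at both times, but the difference between its 2 changes was 0.04 ± 0.13 and did not pass the test, nor did that of Phgdh or Psat1.

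The mitochondrial folate enzymes did not follow the serine enzymes. Shmt2 had 14.86, 14.89, 15.02, 14.92 and 15.03 at 20 µM and 24 h, against 15.03, 15.09, 15.25, 15.18 and 15.05 in vehicle. The ranges touched at 15.03, and the change was -0.18 ± 0.06 (adjusted p = 0.0356). This call was lost without 20 µM replicates 1, 2 or 4 or without vehicle replicates 3 or 4, where the change lay between -0.17 and -0.14, and also under 3 other settings. At 48 h its change was 0.05 ± 0.06 (95% interval -0.07 to 0.17, adjusted p = 0.583). Mthfd2 ran from 10.55 to 11.18 at 20 µM and 24 h and from 10.73 to 11.09 in vehicle, with a change of -0.06 ± 0.15 (95% interval -0.36 to 0.25, adjusted p = 0.856). At 48 h its arrays spread from 10.60 to 11.63 at 20 µM and from 10.77 to 11.57 in vehicle, with a change of -0.22 ± 0.15 (adjusted p = 0.303). Replicate 5 was the array at 11.63, and without it the change was -0.39 (adjusted p = 0.0257). The spread of Mthfd2 between arrays of a group was the widest among the enzymes at 48 h, with an SD of 0.40 at 20 µM and 0.33 in vehicle.

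Slc3a2 changed with the least spread relative to its size. Its log2 signals were 15.17, 15.16, 15.33, 15.21 and 15.35 at 20 µM and 24 h, against 14.71, 14.56, 14.71, 14.55 and 14.68 in vehicle. At 48 h they were 15.09, 15.02, 15.13, 15.11 and 15.16 at 20 µM, against 14.41, 14.17, 14.28, 14.41 and 14.40 in vehicle. The lowest treated array was far above the highest vehicle array at both times. The heavy chain rose by 0.60 ± 0.05 (1.52-fold, adjusted p = 5.88e-10) at 24 h and 0.77 ± 0.05 (1.70-fold, adjusted p = 5.49e-13) at 48 h. The difference between the 2 changes was 0.17 ± 0.08 (adjusted p = 0.318).

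Both light chains among the 10 genes were higher at 20 µM on average. Slc7a11 had 11.78, 11.57, 11.68, 11.51 and 11.83 at 20 µM and 24 h, against 11.28, 11.10, 11.05, 11.12 and 11.15 in vehicle. At 48 h it had 11.68, 11.69, 11.72, 11.54 and 11.58 at 20 µM, against 11.46, 11.15, 11.24, 11.23 and 11.02 in vehicle. The groups did not overlap at either time, and the rises were 0.53 ± 0.08 (adjusted p = 4.2e-06) and 0.42 ± 0.08 (adjusted p = 6.19e-05). Slc7a5 had the lowest signal of the 10 genes, with group means from 8.96 to 9.74, and varied more. It had 9.89, 9.93, 9.53, 9.49 and 9.83 at 20 µM and 24 h, against 9.55, 9.45, 9.29, 9.18 and 8.70 in vehicle, where vehicle replicate 1 lay above 2 of the treated arrays. That difference was 0.50 ± 0.18 (adjusted p = 0.0526), and the adjusted p was 0.0256 with the array runs as a block. It lay under the threshold in 10 of 22 alternatives, which gave values from 0.0256 to 0.185. At 48 h Slc7a5 had 9.78, 9.51, 9.45, 9.48 and 9.94 at 20 µM, against 9.62, 9.21, 9.18, 8.49 and 8.72 in vehicle. One vehicle array again lay among the treated ones, and the rise was 0.59 ± 0.18 (adjusted p = 0.0137). Without vehicle replicate 4, the lowest array, the difference was 0.45 (adjusted p = 0.0663).

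Slc7a1 was represented by the brightest of its 3 probe sets. It had 11.38, 11.32, 11.44, 11.33 and 11.33 at 20 µM and 24 h, against 11.35, 10.61, 10.74, 10.55 and 11.06 in vehicle. Vehicle replicate 1 lay within the treated range and replicates 2, 3 and 4 far below it. The rise was 0.50 ± 0.12 (adjusted p = 0.00312), and at 48 h the difference was 0.27 ± 0.12 (adjusted p = 0.107) with overlapping arrays. The second probe set of the gene did not show the 24 h rise, with 10.24 to 10.77 at 20 µM and 10.45 to 10.60 in vehicle. Its change was 0.04 ± 0.10 (95% interval -0.16 to 0.23, adjusted p = 0.852), while the interval of the brightest was 0.25 to 0.75. The third was dim, with group means between 6.92 and 7.70, below the mean 40th percentile of the arrays (8.09), and was not tested. A difference between the probe sets was not tested, and the parts of the transcript they read are not given in the sources used here.

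**Figure D2:**
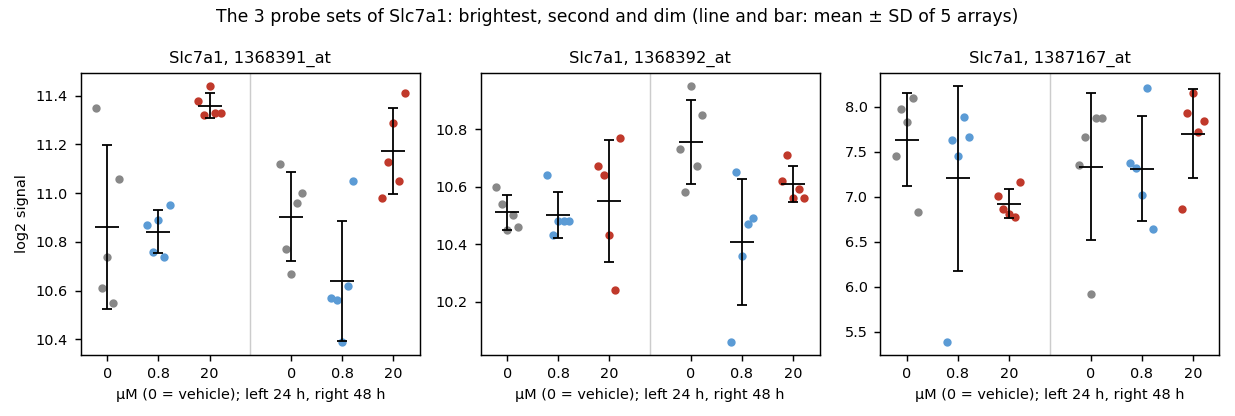
Log2 signal (y axis, own scale per panel) of the 3 probe sets annotated to Slc7a1 on each array, by chlorpromazine dose in µM (x axis, 0 is vehicle), 24 h on the left and 48 h on the right. Points are arrays and the line and bar are mean ± SD of 5 arrays. The 24 h rise at 20 µM is seen on the brightest (left), while the 24 h group means of the second (middle) were 10.55 at 20 µM and 10.51 in vehicle, and the third (right) is dim.

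Slc38a2, the glutamine carrier, stayed within a narrow band on all 30 arrays. It ran from 11.53 to 11.78 at 20 µM and 24 h and from 11.49 to 11.73 in vehicle, and from 11.47 to 11.64 at 20 µM and 48 h and from 11.47 to 11.79 in vehicle. The changes were 0.05 ± 0.07 (95% interval -0.09 to 0.20, adjusted p = 0.698) and -0.05 ± 0.07 (95% interval -0.19 to 0.10, adjusted p = 0.703). Its 6 group means lay between 11.55 and 11.68, and each overlapped its neighbours in that order.

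At 0.8 µM and 24 h, none of the 10 genes passed limma's test against vehicle, where 0.400% of all genes were called. At an unadjusted p under 0.05 there was 1, Shmt2 (-0.13 ± 0.06, unadjusted p = 0.0309), and the 10 changes ran from -0.13 to 0.16. At 0.8 µM and 48 h, 1 of the 10 genes was called, where 2.57% of all genes were called and 1.42% were lower. Psat1 fell to 13.37, 13.18, 13.23, 13.27 and 13.23 at 0.8 µM, against 13.70, 13.62, 13.45, 13.71 and 13.57 in vehicle. Every array at 0.8 µM was below every vehicle array, and the change was -0.35 ± 0.06 (adjusted p = 0.00171). It kept an adjusted p between 0.000376 and 0.0102 in all 22 alternatives run for it.

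Phgdh at 0.8 µM and 48 h had 12.70, 12.47, 12.65, 12.52 and 12.67, against 13.04, 12.72, 12.79, 12.89 and 12.84 in vehicle. These arrays did not overlap either, which held for 4.77% of all genes, but the difference of -0.26 ± 0.11 did not pass the test (adjusted p = 0.280). The second probe set of Slc7a1 was lower at 0.8 µM, with 10.06, 10.65, 10.36, 10.47 and 10.49, against 10.73, 10.58, 10.95, 10.67 and 10.85 in vehicle. Its change of -0.35 ± 0.10 (adjusted p = 0.0483) was lost in 12 of 20 alternatives, among them the removal of any of 8 of the 10 arrays, where the change lay between -0.37 and -0.27. The brightest probe set had -0.26 ± 0.12 (adjusted p = 0.343). Of the 10 genes, 7 had a change below 0 at this dose and time, and their median was -0.18.

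The 2 doses were also compared with each other. At 24 h, 6 of the 10 genes were higher at 20 µM than at 0.8 µM and none was lower, where 14.1% of all genes were called and 7.88% were higher. At 48 h, 7 were higher and none was lower, also at an unadjusted p under 0.05 at either time, where 25.2% were called and 13.5% were higher. For Phgdh, the differences between 20 and 0.8 µM were 0.61 ± 0.11 (adjusted p = 0.000152) at 24 h and 0.51 ± 0.11 (adjusted p = 0.000556) at 48 h. Psat1 differed by 0.24 ± 0.06 (adjusted p = 0.0115) and 0.45 ± 0.06 (adjusted p = 2.08e-06), and at 48 h its arrays at both doses did not overlap. Psph differed by 0.49 and 0.68, Slc3a2 by 0.56 and 0.76 and Slc7a11 by 0.66 and 0.62, each past the test at both times. Slc7a1 passed it at both times on its brightest probe set (0.52 and 0.53). Its second probe set did not, with 0.04 (adjusted p = 0.853) at 24 h and 0.20 (adjusted p = 0.142) at 48 h. Slc7a5 differed by 0.41 ± 0.18 (adjusted p = 0.161) at 24 h and rose by 0.67 ± 0.18 (adjusted p = 0.00696) at 48 h. Shmt2, Mthfd2 and Slc38a2 passed the test at neither time. These comparisons share the 20 µM arrays with those against vehicle, where 4 of the 10 genes rose at 20 µM and 48 h. Part of the 48 h differences between doses lay in lower means at 0.8 µM. Against vehicle at 48 h, Psat1 changed by 0.10 at 20 µM and -0.35 at 0.8 µM. Phgdh changed by 0.25 and -0.26, and Slc7a1 by 0.27 and -0.26 on its brightest probe set.

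**Figure D3:**
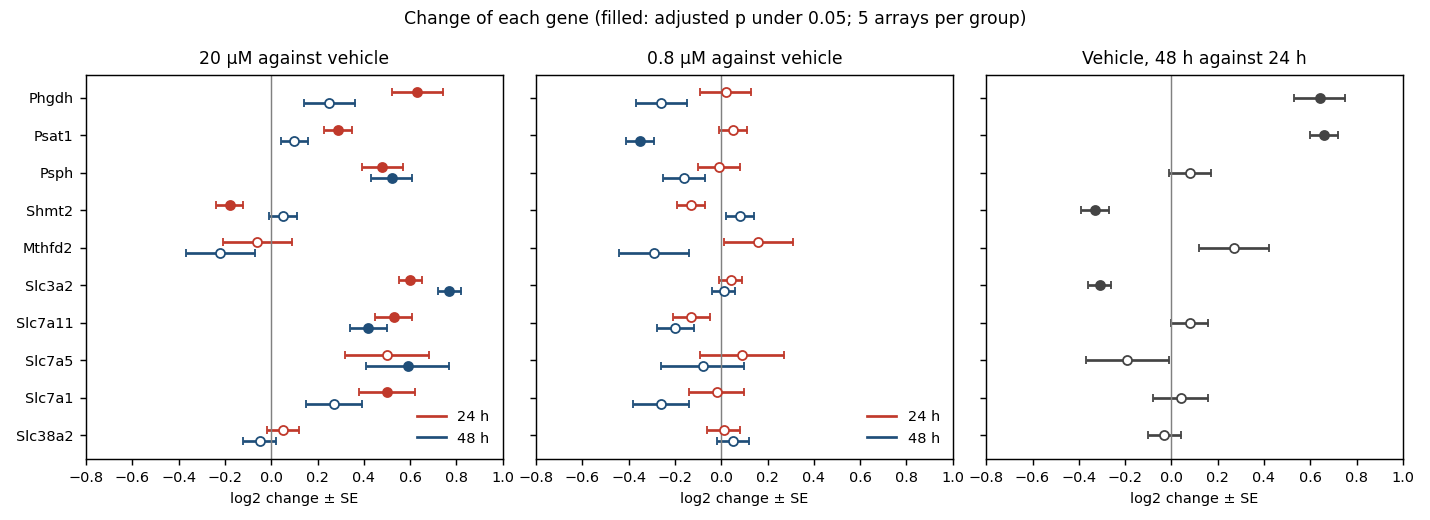
Log2 change ± SE (x axis) of the 10 genes (y axis) at 20 µM against vehicle, at 0.8 µM against vehicle, and in vehicle at 48 h against 24 h. Red is 24 h, blue is 48 h, grey is the change with time, and filled points have an adjusted p under 0.05. Serine enzymes and most transporters lie right of 0 at 20 µM, Psat1 lies at -0.35 at 0.8 µM and 48 h, and Phgdh and Psat1 lie at 0.64 and 0.66 in vehicle with time.

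The vehicle cultures themselves moved between the times. Of the 10 genes, 2 were higher and 2 lower at 48 h than at 24 h, where 11.5% of all genes were called, 5.76% higher and 5.77% lower. Phgdh rose by 0.64 ± 0.11 (adjusted p = 0.000128) and Psat1 by 0.66 ± 0.06 (adjusted p = 1.51e-08), with all 48 h vehicle arrays above all 24 h vehicle arrays. Shmt2 fell to 14.79 ± 0.14 at 48 h, against 15.12 ± 0.09 at 24 h (SD, n = 5), a change of -0.33 ± 0.06 in the limma fit with adjusted p = 0.000299. Slc3a2 fell to 14.33 ± 0.11 at 48 h, against 14.64 ± 0.08 at 24 h (SD, n = 5), a change of -0.31 ± 0.05 in the limma fit with adjusted p = 0.000203. The remaining 6 genes had changes between -0.19 and 0.27 and did not pass the test. The rise of Phgdh and Psat1 with culture time was thus as large as, or larger than, their changes at 20 µM and 24 h in size, though no test compared them. In the same comparison 4 of the 8 kept Kupffer cell markers were lower and 0 higher, with a median change of -0.52. Each other list of cell type markers had 1 call. Whether such shifts take part in the changes with time was not tested.

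None of the 10 genes passed limma's test of the difference between the 20 µM effect at 48 h and that at 24 h, where 3.69% of all genes were called. At an unadjusted p under 0.05 there were 4: Phgdh (-0.37 ± 0.15), Psat1 (-0.19 ± 0.09), Shmt2 (0.23 ± 0.08) and Slc3a2 (0.17 ± 0.08). The smallest adjusted p was 0.176, for Shmt2, and without vehicle replicate 5 at 48 h it was 0.0378 with a difference of 0.29. A call at 24 h and none at 48 h, as for Phgdh, Psat1 and Slc7a1, therefore does not show that the response had passed.

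The order of the 6 group means set the genes apart. Phgdh was highest at 20 µM and 48 h (13.11), and those arrays did not overlap the next group, vehicle at 48 h (12.86), which did overlap 20 µM at 24 h (12.85). Below a second gap came 0.8 µM at 48 h (12.60), 0.8 µM at 24 h (12.24) and vehicle at 24 h (12.22), which overlapped their neighbours. Psat1 had a single gap, between vehicle at 48 h (13.61) and 0.8 µM at 48 h (13.25), with 20 µM at 48 h on top (13.70). Slc3a2 had gaps between 20 µM at 48 h (15.10) and 0.8 µM at 24 h (14.69), and between vehicle at 24 h (14.64) and 0.8 µM at 48 h (14.34). Its highest group was 20 µM at 24 h (15.24), whose arrays also did not overlap those of 20 µM at 48 h. That gap was narrow, since both edges round to 15.16. The difference between these 2 groups was not tested. Slc7a11 had its gap between 20 µM at 48 h (11.64) and vehicle at 48 h (11.22). In Psph, Slc7a1, Slc7a5, Shmt2, Mthfd2 and Slc38a2 each group overlapped its neighbours in the order, and Psph, Slc7a1 and Slc7a5 had both 20 µM groups on top.

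Genes with the most similar patterns over the 30 arrays were found by Pearson's r of log2 signal, given as a description since the arrays share the 6 groups. Slc3a2 was closest to Srxn1, which encodes sulfiredoxin (r = 0.966), Trib3, a pseudokinase induced by Atf4 (0.947), and Gadd45a, a stress gene of growth arrest (0.942). Slc7a11 was closest to Ptges3 (0.916), Atf4 (0.914) and Tmem147 (0.897), and Psph to Tmem147 (0.907), Spg21 (0.905) and Atf4 (0.900). With the group means removed, r with Atf4 was 0.35 for Slc7a11 and 0.42 for Psph. That of Slc3a2 with Srxn1 was then 0.66, so the pairs differ in how far their r rests on the groups. Slc7a1 was closest to the glycine transporter Slc6a9 (0.879), to Chac1, which degrades glutathione (0.858), and to Fat1 (0.857). Phgdh was closest to the DNA repair enzyme Apex1 (0.926), Acsl4, an acyl-CoA synthetase of arachidonate (0.925), and Ddit4l (0.882). For Psat1 the closest were Rab30 (0.921), Nmral1 (0.886) and Plat (0.885), with 0.72, 0.19 and 0.19 once group means were removed. For Slc7a5 they were Exosc1 (0.861), Tmem11 (0.814) and Atic (0.786). Shmt2 went with Gpi (0.864), Serpina3n (0.826) and Fga (0.822), of which the last encodes a fibrinogen chain. Mthfd2 (at most 0.631, with Tefm, then Ptbp1 at 0.620 and Lpin1 at 0.612) and Slc38a2 (at most 0.604, with Sema4b, then Fbxw7 at 0.566 and Cngb1 at 0.564) had no close partner.

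After the group means were removed, so that only the spread between arrays of a group was left, Phgdh and Psat1 still went together (r = 0.75 over 30 arrays). Phgdh and Slc7a1 had r = 0.61 and Slc3a2 and Slc7a1 had 0.51, and the lowest value, Phgdh with Shmt2, was -0.38. Some deviations went with the array numbers, but how far the correlations above did so was not tested. In the run of 6 arrays with the lowest numbers, Phgdh lay above its group mean in 6 of 6 groups, by 0.19 on average. It was the highest array in 5 of them. In the second run, Slc3a2 and the brightest probe set of Slc7a1 lay above their group means in 0 of 6 groups. Slc7a5 in the fourth run lay below its group mean in 6 of 6 groups, with a mean deviation of -0.23. Over all probe sets, arrays of the same run were correlated at 0.018 on average in their deviations from the group mean, and arrays of different runs at -0.005. Every run held its groups in the same order, so the effect of position in a run on these genes cannot be told apart from that of the groups.

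Genes around the pathway were read from 6 lists, and their counts stand beside the shares of all genes called at 20 µM. These shares were 12.3% higher and 9.93% lower at 24 h, and 19.3% higher and 14.2% lower at 48 h. Of 16 kept genes of folate metabolism and glycine cleavage, 9 were lower and 2 higher at 20 µM after 24 h, and 10 were lower and 2 higher after 48 h, with median changes of -0.32 and -0.31. Ftcd, which moves carbon from histidine to folate, changed by -0.95 ± 0.08 (adjusted p = 2.3e-10) at 24 h and -1.21 ± 0.08 (adjusted p = 1.59e-13) at 48 h. Gldc, the glycine decarboxylase, changed by -0.43 ± 0.10 and -1.18 ± 0.10 on its brightest probe set, and by -1.13 and -1.30 on that of largest variance. Slc25a32, the mitochondrial folate carrier, changed by -0.77 ± 0.12 and -0.94 ± 0.12. Tyms, the thymidylate synthase, rose by 0.58 ± 0.14 and 0.88 ± 0.14.

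The list of serine and glycine use had 14 kept genes, among them linked steps, such as Cth and Tdh, that do not themselves use serine or glycine. Falls and rises numbered 8 and 1 after 24 h and 9 and 1 after 48 h, with medians of -0.43 and -0.50. Glyat, which conjugates glycine, changed by -1.06 ± 0.19 (adjusted p = 7.54e-05) and -2.11 ± 0.19 (adjusted p = 1.1e-10). Cth, which makes cysteine from cystathionine, changed by -0.59 ± 0.08 and -1.28 ± 0.08. Tdh, the threonine dehydrogenase, changed by -1.46 ± 0.23 (adjusted p = 8.03e-06) at 48 h, where its mean signal at 20 µM was dim (7.98), and by -0.67 ± 0.23 (adjusted p = 0.0439) at 24 h, a call lost in 12 of 22 alternatives, 8 of which left out a single array and gave -0.70 to -0.52. Sds, the serine dehydratase that breaks serine down, changed by -2.32 ± 0.49 at 48 h (adjusted p = 0.00041), to a dim signal (means of 6.01 at 20 µM and 8.33 in vehicle). Its difference at 24 h was -1.32 ± 0.49 (adjusted p = 0.0625). At 24 h the 3 genes of serine synthesis were thus higher at 20 µM. In the list of serine and glycine use, 8 of the 14 genes were lower, where 9.93% of all genes were.

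In the other lists the calls were mixed. Of all genes, 12.3% were called higher and 9.93% lower at 24 h, and 19.3% higher and 14.2% lower at 48 h. Of 23 kept genes of other amino acid transporters, 3 were called higher and 5 lower at 24 h, and 3 higher and 4 lower at 48 h, with medians of -0.06 and 0.07. Slc6a6, the taurine transporter, rose by 0.96 ± 0.15 at 48 h (adjusted p = 4.18e-06) and by 0.48 ± 0.15 at 24 h (adjusted p = 0.0201), where the change was 0.30 (adjusted p = 0.104) without vehicle replicate 5. Its probe set of largest variance gave 1.95 (adjusted p = 0.00288) at 48 h and 0.98 (adjusted p = 0.187) at 24 h. Slc6a13, a carrier of GABA and taurine, changed by -1.20 ± 0.14 at 48 h (adjusted p = 4.47e-08) and by -0.49 ± 0.14 at 24 h (adjusted p = 0.013), where it was -0.41 (adjusted p = 0.0516) without vehicle replicate 3 and -0.40 (adjusted p = 0.0594) without 20 µM replicate 4. The glutamate transporter Slc1a3 (-0.48 at both times) and the neutral carrier Slc1a4 (0.38 at 24 h and 0.31 at 48 h) were called at both times. For Slc1a3 the call was lost in 11 and 5 of 22 alternatives, and leaving out single arrays gave -0.56 to -0.40 over both times. The probe set of Slc1a3 with the largest variance gave -0.03 (adjusted p = 0.975) at 24 h and -0.13 (adjusted p = 0.855) at 48 h. For Slc1a4 it was lost in 1 and 5 of 22, and leaving out single arrays gave 0.24 to 0.42.

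Of 10 kept genes of other amino acid synthesis and transamination, 2 were up and 3 down after 24 h, and 1 up and 4 down after 48 h. Asns, the asparagine synthetase, rose by 0.79 ± 0.07 (adjusted p = 1.15e-09) and 0.59 ± 0.07 (adjusted p = 8.49e-08). Otc, the urea cycle enzyme that uses ornithine, changed by -2.82 ± 0.25 at 48 h (adjusted p = 1.24e-10) and by -0.87 ± 0.25 at 24 h (adjusted p = 0.0135), where it was -0.75 (adjusted p = 0.052) without 20 µM replicate 4. The alanine aminotransferase Gpt changed by -0.79 ± 0.08 and -0.49 ± 0.08, and its mitochondrial form Gpt2 changed by -1.19 ± 0.11 at 48 h, with -0.27 ± 0.11 (adjusted p = 0.101) at 24 h. Without vehicle replicate 3 the 24 h value of Gpt2 was -0.38 (adjusted p = 0.0114).

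Of the 8 genes of glutathione synthesis and turnover, which draws on cystine brought in by Slc7a11, 3 were higher and 2 lower at the earlier time, and 2 higher and 4 lower at the later one. Gclm, the modifier subunit of glutamate-cysteine ligase, rose by 0.24 ± 0.06 (adjusted p = 0.00412) and 0.35 ± 0.06 (adjusted p = 3.49e-05). Oplah, the oxoprolinase, changed by -0.82 ± 0.16 and -1.19 ± 0.16. Chac1 rose by 0.45 ± 0.13 and 0.36 ± 0.13, but its call was lost without vehicle replicate 2 (0.35, adjusted p = 0.0661) or 3 (0.39, adjusted p = 0.0539) at 24 h and in 9 of 22 alternatives at 48 h. The transferase Ggt1 changed by -0.47 ± 0.15 at 48 h (adjusted p = 0.0213), a call lost without vehicle replicate 2 (-0.39, adjusted p = 0.0787) or 20 µM replicate 5 (-0.44, adjusted p = 0.0513).

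The Atf4 list held 14 genes, Atf4 with its partners and known targets. Of these, 7 rose and 1 fell at 24 h, and 9 rose and 2 fell at 48 h. Of all genes, 12.3% were higher and 9.93% lower at 24 h, and 19.3% and 14.2% at 48 h. The medians of the list were 0.25 and 0.34, and its lowest changes -0.19 and -0.23. Chac1 stands both here and in the glutathione list. The genes named below all rose, since they were picked by the largest change. Atf4 itself rose by 0.30 ± 0.04 (adjusted p = 1.94e-06) at 24 h and 0.32 ± 0.04 (adjusted p = 2.29e-07) at 48 h, and its arrays did not overlap. Trib3 rose by 0.95 ± 0.11 and 1.04 ± 0.11, Ddit3, a transcription factor of endoplasmic reticulum stress, by 0.57 ± 0.12 and 1.30 ± 0.12, and Atf3 by 0.55 ± 0.14 and 1.14 ± 0.14. Sesn2, a leucine sensor, rose by 0.45 ± 0.11 and 0.67 ± 0.11 on its brightest probe set. Its probe set of largest variance gave 0.59 (adjusted p = 0.546) at 24 h and -0.18 (adjusted p = 0.858) at 48 h.

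**Figure D4:**
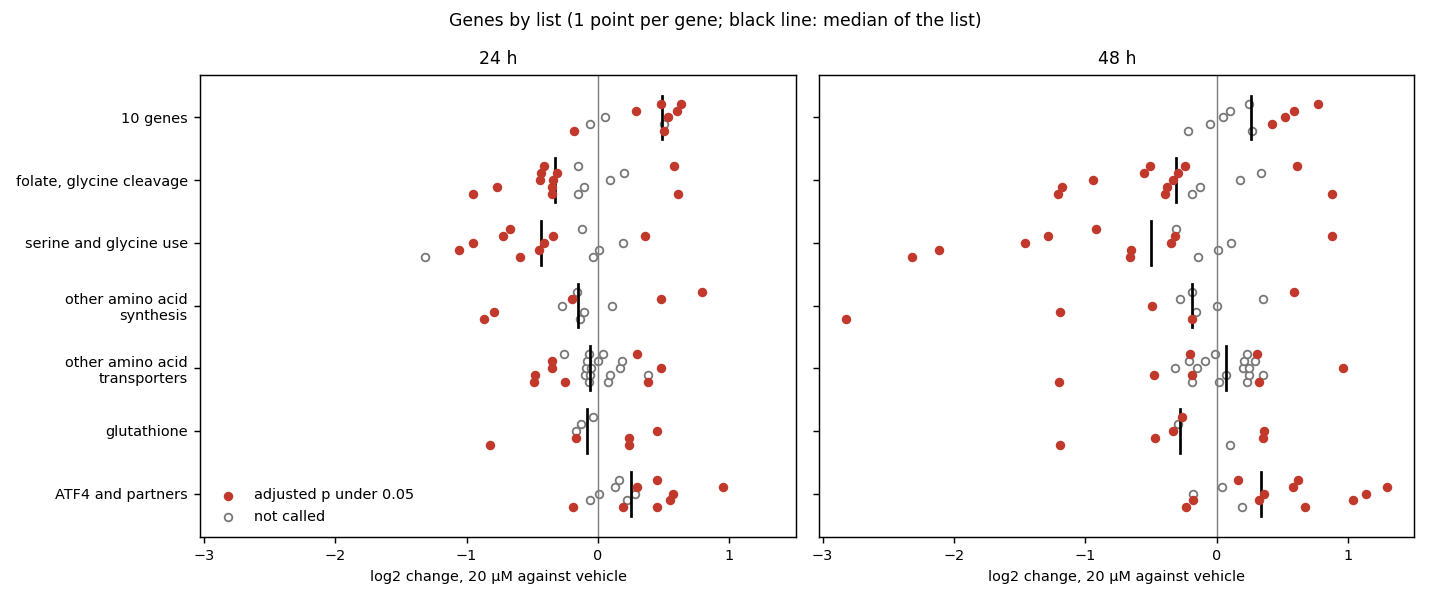
Log2 change at 20 µM against vehicle (x axis) of each kept gene in the 10 genes and the 6 lists (y axis), at 24 h and at 48 h. Each point is a gene, filled at an adjusted p under 0.05, and the black line is the median of the list. The median of the 10 genes (0.49 and 0.26) and that of the Atf4 list (0.25 and 0.34) lie right of 0, and those of folate metabolism (-0.32 and -0.31) and of serine and glycine use (-0.43 and -0.50) lie left of it.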

How the data were processed

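Each of the 30 arrays measured RNA from 1 culture well as biotin-labelled cRNA. The deposited values are a linear signal intensity per probe set, summarised by the authors with MAS5 per the submitters' processing notes (version not stated), with a trimmed mean of 1499.9 on every array. Dose and time entries of the labels gave the groups.

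Values below 16 were set to 16 before log2 was taken, without another normalization. Probe sets above the 40th percentile of their array on at least 5 arrays were kept (21226 of 31099, controls left out). Names came from the platform annotation, updated by gene ID through RefSeq GRCr8, and a gene was represented by its brightest kept probe set. limma 3.58.1 in R 4.3.3 fitted 1 mean per group over all 30 arrays with eBayes and a trend, and p-values were adjusted by Benjamini-Hochberg over all kept probe sets of a comparison. On simulated data for 20 µM against vehicle at 24 h with 21226 probe sets, 8, 31, 41 and 46 of 50 probe sets changed 1.25-fold, 1.5-fold, 2-fold and 4-fold were called, and 8 of 134 calls were false. The data had many more calls (1935 probe sets higher and 1750 lower). The adjusted p depends on that share, so these simulated counts do not carry over to the data.

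The genes and lists were chosen with earlier results of these data known. From each list the text names up to 4 genes called at 20 µM with the largest change, and Atf4, and for each of the 10 genes the 3 most similar genes. Alternatives covered the floor, filter, normalization, trend, array weights, array runs as a block, choice of probe set, the groups in the fit and leaving out each array. The number of arrays limits the precision.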

Additional observations from a re-analysis of the deposited data

Results flagged for a closer look

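Of 72 sets of 5 arrays, each a probe set in a group, 3 held an array far from the other 4, where chance gives about 1 in 20. All were probe sets of Slc7a1. On the second probe set, replicate 1 at 0.8 µM and 24 h read 10.64 and the other 4 arrays 10.43 to 10.48. On the third probe set, which is dim, the same array read 5.39 and the others 7.45 to 7.89, and vehicle replicate 3 at 48 h read 5.92 and the others 7.35 to 7.87. The brightest probe set had no such array.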

How the results depend on the processing

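The 24 h fall of Shmt2 at 20 µM, the one gene of the 10 called lower, was lost under several settings: the count of lower genes was 0 with no filter, with median centring and without a trend, and 0 to 1 when single arrays were left out. The count of higher genes was then 6 to 7, and 7 without vehicle replicate 2, whose title gives 2 h. At 48 h the counts were 3 to 5 higher and 0 to 1 lower (Mthfd2 without 20 µM replicate 5), and the difference of the 20 µM effects had 0 to 1 higher (Shmt2 without vehicle replicate 5 at 48 h). No direction of a call among the 10 genes reversed. Of the genes named from the lists, Sesn2 reversed at 48 h, to -0.18 (adjusted p = 0.858), with the probe set of largest variance. Over all alternatives, the count of other transporters ran from 1 to 3 higher and 3 to 5 lower at 24 h and from 2 to 5 higher and 2 to 4 lower at 48 h, that of serine and glycine use from 0 to 1 higher at 24 h, that of glutathione genes from 1 to 2 lower at 24 h and 1 to 2 higher at 48 h, that of other amino acid synthesis from 1 to 2 higher at both times, and that of the Atf4 list from 1 to 2 lower at 48 h. The labels carry no replicate numbers, so samples were paired across groups only through the runs of 6 consecutive array numbers. With the runs as a block, 7 of the 10 genes were higher and 1 lower at 20 µM after 24 h, and 5 were higher and 0 lower after 48 h. Shares of all genes called in this and the other alternatives are not given here, so these counts cannot be set against them. Centring arrays on their medians moved the median of all genes by at most 0.03 in size. The third Slc7a1 probe set is dim, which limits it. Slc7a5 had the lowest signal of the 10 genes, but its group means (8.96 to 9.74) lay above the mean 40th percentile of the arrays (8.09).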
